A study of Rattus norvegicus with 6 samples.

Results

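The S100 proteins were followed through 10 genes on rat expression arrays: S100a1, S100a4, S100a6, S100a8, S100a9, S100a10, S100a11, S100a13, S100b and S100g. They were chosen by symbol, and the platform annotation gave each of the 10 exactly 1 probe set naming only that gene, so 10 of 14217 genes with a single symbol and 10 of 31099 probe sets were described. The data came from 6 arrays, 3 of the cholangiocarcinoma strain BDEsp-TDECC (TDECC below) and 3 of the cancer-associated fibroblastic strain BDEsp-TDESM (TDESM below), which the labels describe by overexpression of Acta2, smooth muscle actin. Both strains are clonal, both were derived from tumours formed after spontaneously transformed cholangiocytes (BDEsp cells) had been put into the bile ducts of young adult male Fischer 344 rats, and each stands for 1 clone. For all 6 samples alike the labels describe a 3-dimensional collagen gel co-culture and name the TGF-beta inhibitors SB 431542 and LY2157299, without saying which cultures received them. The labels do not tie the 3 arrays of a strain to separate cultures, so the p-values reflect array-to-array variation that could be purely technical.

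S100 proteins are small calcium-binding proteins with paired EF-hand motifs that mostly act as dimers. When calcium rises inside a cell many of them expose a surface that binds partner proteins such as annexins and myosins, and several are also released and signal through receptors such as RAGE and TLR4. S100A4 is widely used as a marker of fibroblasts and of motile cancer cells, S100A8 and S100A9 form the heterodimer calprotectin of neutrophils and inflamed epithelium, and S100B is best known from glia.

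Of the 10 genes, 8 lie on chromosome 2 of the RefSeq assembly GRCr8, S100b on chromosome 20 and S100g on X. Of the 10, 6 had a promoter entry in the RefSeq table, and the 250 bases before the annotated start are shown for 3 of them. S100a9 is shown because its level differed most between the strains, and S100a4 and S100a11 because both were near the top of the scale in both strains. S100a6 was near the top as well and had an entry, but it is not shown. Capitals mark matches to TATAAA (the TATA box), TTGNNNAA (a C/EBP core), GGGCGG (a GC box) or TGANTCA (AP-1), searched on both strands.
S100a9, chr2:178490623-178490872, minus strand: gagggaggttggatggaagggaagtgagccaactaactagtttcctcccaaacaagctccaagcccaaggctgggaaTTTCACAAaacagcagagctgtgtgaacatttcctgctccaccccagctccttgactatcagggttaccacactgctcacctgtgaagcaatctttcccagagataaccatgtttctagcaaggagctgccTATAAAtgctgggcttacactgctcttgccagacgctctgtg
S100a4, chr2:178388279-178388528, plus strand: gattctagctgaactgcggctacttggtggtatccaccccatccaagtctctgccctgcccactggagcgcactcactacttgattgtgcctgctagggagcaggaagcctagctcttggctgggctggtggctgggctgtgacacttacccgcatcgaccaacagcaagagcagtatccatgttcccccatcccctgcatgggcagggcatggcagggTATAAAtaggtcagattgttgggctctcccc
S100a11, chr2:181874882-181875131, plus strand: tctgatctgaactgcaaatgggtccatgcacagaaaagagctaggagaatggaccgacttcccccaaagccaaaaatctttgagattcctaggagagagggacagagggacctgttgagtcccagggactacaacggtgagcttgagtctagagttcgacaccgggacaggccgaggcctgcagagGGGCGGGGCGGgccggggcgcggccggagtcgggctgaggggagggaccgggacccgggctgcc

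S100a9 held a TATA box match beginning 42 bases before the start and a C/EBP match on the opposite strand beginning 173 bases before it, and S100a4 held a TATA box match 31 bases before the start. S100a11 held no TATA box match and 2 GC box matches, which share 1 base. The S100a6 stretch, not shown, held no TATA box match and a GC box match beginning 80 bases before the start of its promoter entry. That stretch, 178398287 to 178398536, lies inside the RefSeq gene, which begins at 178398189. The S100a11 stretch was 62.0% G and C, the S100a4 stretch 57.6% and the S100a9 stretch 50.4%. Among 33469 promoters of that length 12.9% held a TATA box match, 33.8% a C/EBP match, 30.5% a GC box match and 6.3% an AP-1 match. These letter matches are descriptions of the sequence and not evidence of binding.

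Marker genes fitted the labels of both strains. Of 8 measured bile duct epithelial markers 8 were higher in TDECC and 0 lower, and of 12 fibroblast and myofibroblast markers 0 were higher and 10 lower; Fap and Dcn were the exceptions, at 4.18 and 3.87 in TDECC and 4.28 and 3.67 in TDESM. Array medians lay between 5.79 and 5.86, and across genes the TDECC arrays correlated with each other at 0.968 to 0.975, and the TDESM arrays at 0.995 to 0.998. The TDECC arrays varied more: their SD exceeded that of TDESM for 77.3% of genes. Values are RMA values on the log2 scale, and a difference is the TDECC mean minus the TDESM mean. Each was tested with limma over all 14217 genes, with Benjamini-Hochberg adjustment and a threshold of 0.05. Limma called 42.7% of genes, 20.6% higher and 22.1% lower in TDECC; these were 2930 and 3135 genes, against 3163 and 2219 when arrays were centred on housekeeping genes and 11282 and 905 when they were centred on poly-A control transcripts. An exact two-sided permutation test cannot go below p = 0.1 with 3 arrays against 3.

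The 10 S100 genes fell into 3 kinds. S100a4, S100a6, S100a10 and S100a11 stood within 1.37 log2 units of the highest value of every array in both strains. S100a8, S100b and S100g stood among the lowest values in both, and S100a1, S100a9 and S100a13 in between in TDECC. By limma 2 were higher in TDECC, S100a9 and S100a1, 1 was lower, S100a10, and 7 did not pass. That is 30% of the 10, against 42.7% of all genes. The count of 3 fell to 1, S100a9, with cyclic loess and without TDECC replicate 3 or any single TDESM replicate, was 4 without TDECC replicate 1, and was 10, all higher, centred on the poly-A controls. Both strains' values did not overlap for 5 of the 10, against 53.6% of all genes. The median difference over the 10 genes was 0.08 on the log2 scale, against -0.003 over all genes. Probe sets differ in how strongly they respond to their transcript, so no order of abundance among the 10 was read from their levels.

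**Figure D1:**
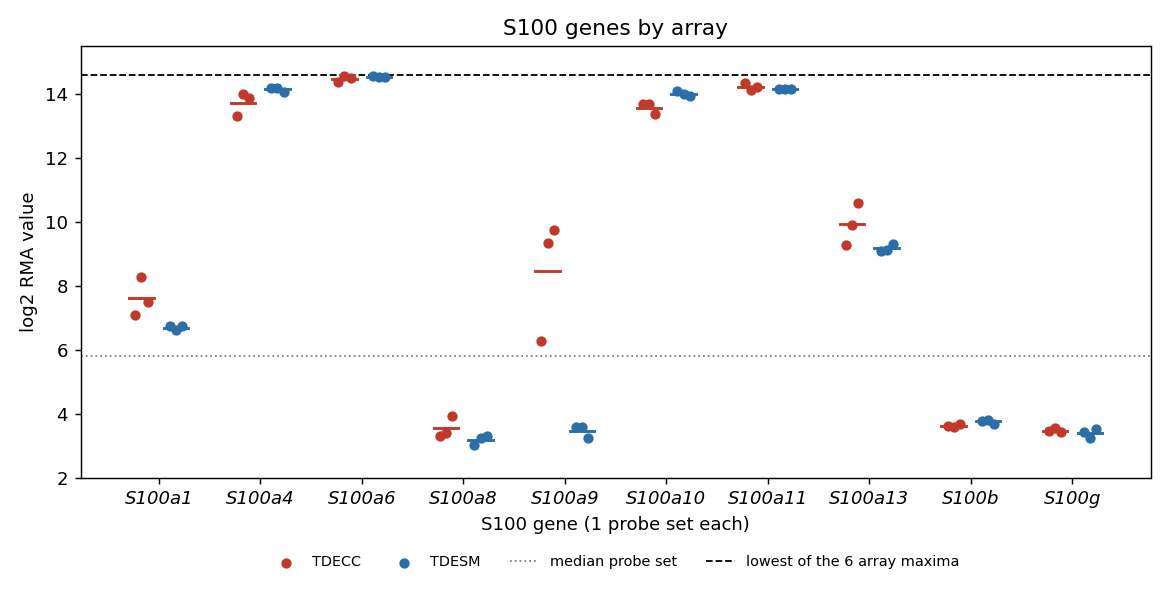
Log2 RMA value of each of the 10 S100 genes on each array, TDECC arrays left of TDESM arrays, with a short bar at the mean of 3 arrays; the dotted line is the median probe set and the dashed line the lowest of the 6 array maxima. S100a9 is the gene whose strains lie furthest apart, and its TDECC arrays spread from 6.27 to 9.75.

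S100a9 encodes the larger partner of calprotectin. It read 6.27, 9.34 and 9.75 on the 3 TDECC arrays, against 3.58, 3.57 and 3.23 on the TDESM arrays. Every TDECC array was above every TDESM array, and TDECC replicate 1 stood apart from the other TDECC arrays. The means were 8.45 ± 1.90 in TDECC and 3.46 ± 0.20 in TDESM (SD, n = 3 each). Their log2 difference was 4.99 (SE 0.85, 95% confidence interval 2.98 to 7.0, limma adjusted p = 0.00285). The TDESM values stood near the bottom of the scale, where 10.3% of probe sets averaged lower, and the difference is not given as a fold. Without TDECC replicate 1 the difference was 6.08. In whole-culture RNA, fewer cells carrying a transcript and less of it per cell cannot be told apart. The TDECC SD of S100a9 was larger than that of 99.4% of genes.

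S100a8 encodes the partner of S100A9, and its probe set stood near the bottom of the scale in both strains. It read 3.30, 3.40 and 3.92 in TDECC, against 3.03, 3.25 and 3.29 in TDESM. The groups just failed to overlap, at levels that only 11.3% of probe sets fell below in TDECC and 6.0% in TDESM. The log2 difference was 0.35 (95% confidence interval -0.10 to 0.80, limma adjusted p = 0.189), and 0.16 without TDECC replicate 3. The deposited table gives no detection calls, so neither S100a8 nor any other low gene could be called absent.

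The S100A8 and S100A9 proteins are made in abundance by neutrophils and monocytes, so markers of those cells are given beside them. Of 11 measured myeloid markers 0 passed the threshold by limma, or 0% against 42.7% of all genes. Of the 11, 1 had an unadjusted p below 0.05, which was Cd14, and 1 marker passed without TDECC replicate 1. The summed log2 level of the 11 ran from 50.9 to 55.9 on TDECC arrays and from 50.8 to 53.1 on TDESM arrays. Ptprc, the leukocyte antigen CD45, read 3.69, 3.52 and 3.84 in TDECC and 3.80, 3.88 and 3.71 in TDESM, and Csf3r, the granulocyte growth factor receptor, read 3.41 to 3.66 in TDECC and 3.63 to 3.72 in TDESM. Ptprc and Csf3r thus stood near the bottom of the scale in both strains. The median level of the 11 was 4.19 in TDECC and 4.09 in TDESM, but not all stood so low. Lyz2 averaged 5.97 in TDECC and 5.82 in TDESM, near the array medians, and Cd68 averaged 5.22 and 4.93. The source of the S100a9 signal was not tested. Cd14, a co-receptor of TLR4 singled out after its values were seen, read 8.65, 10.88 and 11.64 in TDECC and 8.63, 8.67 and 8.90 in TDESM. Like S100a9 and 29.1% of all genes, Cd14 was lowest in TDECC on replicate 1.

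The genes closest to S100a9 in pattern were found by the root mean square distance between array values centred on each gene's own mean, over the 6 arrays. Upk3bl1 lay at 0.35 log2 units, Prr15 at 0.41 and Slc44a4 at 0.44. Prr15 read 7.0, 10.68 and 10.14 in TDECC, against 3.75, 3.96 and 3.36 in TDESM. Since the genes were picked by these values, their likeness to S100a9 on TDECC replicate 1 and in TDESM follows from the choice. Across the 10 S100 genes, 6 had their lowest TDECC value on replicate 1, against 29.1% of all genes; the part of that array in these values was not tested.

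**Figure D2:**
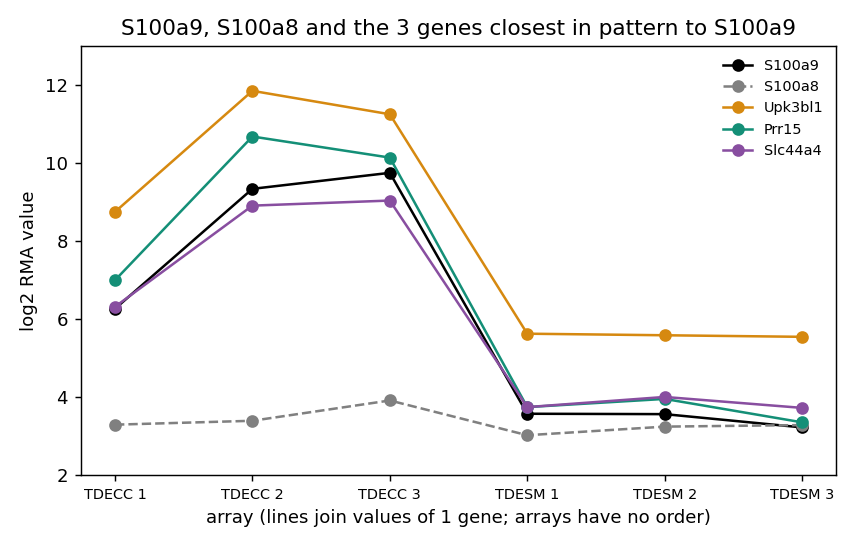
Log2 RMA value on each array (TDECC arrays left, TDESM arrays right) of S100a9, of its partner S100a8 (dashed) and of the 3 genes picked as closest to S100a9 in pattern. S100a9 and the 3 genes are lowest in TDECC on replicate 1 and lower still in TDESM, while S100a8 stays between 3.03 and 3.92.

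S100a1, which encodes a protein best known as a regulator of calcium cycling in heart muscle, was modestly higher in TDECC. It read 7.08, 8.26 and 7.49 in TDECC, against 6.73, 6.62 and 6.73 in TDESM, with no overlap. The log2 difference was 0.92 (SE 0.28, 95% confidence interval 0.24 to 1.59, limma adjusted p = 0.0373). This call was not stable: leaving out TDECC replicate 3 gave an adjusted p of 0.0644, leaving out TDESM replicate 1, 2 or 3 gave 0.0956 to 0.116, and cyclic loess gave 0.0597. Without TDECC replicate 2 it stayed past the threshold at a difference of 0.59 (adjusted p = 0.0288).

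S100a13, whose protein takes part in the non-classical release of FGF1 and interleukin 1 alpha, lies next to S100a1 on chromosome 2. It read 9.26, 9.91 and 10.59 in TDECC, against 9.10, 9.12 and 9.30 in TDESM. TDECC replicate 1 fell inside the TDESM range and the other TDECC arrays above it. The log2 difference was 0.75 (95% confidence interval 0.00 to 1.49, limma adjusted p = 0.10), and without TDECC replicate 1 it was 1.08 and passed (adjusted p = 0.00818). Without TDECC replicate 3 it was 0.41 and did not pass (adjusted p = 0.182). Of its cargoes, Il1a, interleukin 1 alpha, read 10.82, 10 and 12.27 in TDECC and 3.78, 3.43 and 3.59 in TDESM, a log2 difference of 7.43 (limma adjusted p = 3.65e-05). Fgf1, a growth factor without a signal peptide, averaged 7.34 in TDECC and 7.22 in TDESM and did not pass.

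S100a10 encodes p11, which pairs with annexin A2 at the cell surface and binds plasminogen there, and it is known as an S100 protein that has lost the ability to bind calcium. It read 13.67, 13.67 and 13.37 in TDECC, against 14.09, 14 and 13.94 in TDESM. All TDECC arrays were below all TDESM arrays. The log2 difference was -0.44 (SE 0.13, 95% confidence interval -0.76 to -0.12, limma adjusted p = 0.0340), and with arrays centred on the poly-A control transcripts it turned to 0.83. Centring on housekeeping genes also ended the call (-0.27, adjusted p = 0.409), as did cyclic loess (adjusted p = 0.0676). Leaving out TDECC replicate 3 gave an adjusted p of 0.0593, and leaving out TDESM replicate 1, 2 or 3 gave 0.0700 to 0.124. Its annexin partner gene Anxa2 read 14.54, 14.41 and 14.46 in TDECC and 14.26, 14.25 and 14.23 in TDESM, a difference of 0.22 that did not pass (limma adjusted p = 0.146). The RefSeq table lists 1 S100a10 pseudogene, and whether the probe set also reads it was not tested. Closest to S100a10 in pattern, by the same distance, were Rnmt, Nfx1 and Clta, each at 0.06 log2 units, with differences of -0.42, -0.39 and -0.39.

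S100a4, the gene of the fibroblast and metastasis marker also called FSP1, read 13.31, 13.99 and 13.86 in TDECC, against 14.19, 14.20 and 14.06 in TDESM. The groups did not overlap, but the gap between the highest TDECC array and the lowest TDESM array was small beside the TDECC spread. The log2 difference was -0.43 (95% confidence interval -0.89 to 0.03, limma adjusted p = 0.119), and it turned to 0.84 centred on the poly-A controls. Without TDECC replicate 1 it was -0.23. High S100a4 was therefore measured in both the carcinoma and the fibroblastic strain. On every array S100a4 stood within 1.37 log2 units of the highest value, and whether its difference was compressed was not tested. Of the 12 listed fibroblast and myofibroblast markers 10 were lower in TDECC on the same arrays, while Fap and Dcn did not pass. That is 83.3% called, against 42.7% of all genes. Among the 10, Vim averaged 7.94 in TDECC and 14.75 in TDESM, and Col1a2 averaged 3.69 in TDECC and 14.41 in TDESM.

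S100a6, the gene of calcyclin, stood highest on the scale. It read 14.36, 14.55 and 14.50 in TDECC, against 14.57, 14.53 and 14.52 in TDESM. The ranges overlapped, and the difference of -0.07 (95% confidence interval -0.34 to 0.20, limma adjusted p = 0.671) turned to 0.04 with cyclic loess, 0.10 centred on housekeeping genes and 1.20 centred on the poly-A controls. Among 31042 probe sets it ranked 11, 2 and 4 on the TDECC arrays and 6, 8 and 7 on the TDESM arrays.

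S100a11, the gene of calgizzarin, which binds annexin A1, read 14.35, 14.11 and 14.23 in TDECC, against 14.15, 14.15 and 14.16 in TDESM. Its TDESM arrays lay inside the TDECC range. The difference was 0.08 (95% confidence interval -0.20 to 0.35, limma adjusted p = 0.650). RefSeq lists 2 S100a11-like genes and 5 S100a11 pseudogenes, and whether the probe set reads them was not tested.

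Array values this close to the top of the scale can be compressed, so the distance from the top is given for each of the 4 bright genes. The arrays topped out at 14.60 to 14.76, and 62 to 70 of its 31042 probe sets, or 0.200% to 0.226%, exceeded 14. S100a6 lay 0.05 to 0.32 below the highest value in TDECC and 0.18 to 0.23 below it in TDESM. S100a11 lay 0.33 to 0.49 below it in TDECC and 0.59 to 0.61 in TDESM. S100a4 lay 0.61 to 1.37 below it in TDECC and 0.56 to 0.69 in TDESM, and S100a10 lay 0.93 to 1.31 below it in TDECC and 0.66 to 0.81 in TDESM. Whether the differences of S100a4, S100a6, S100a10 and S100a11 were compressed was not tested.

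**Figure D3:**
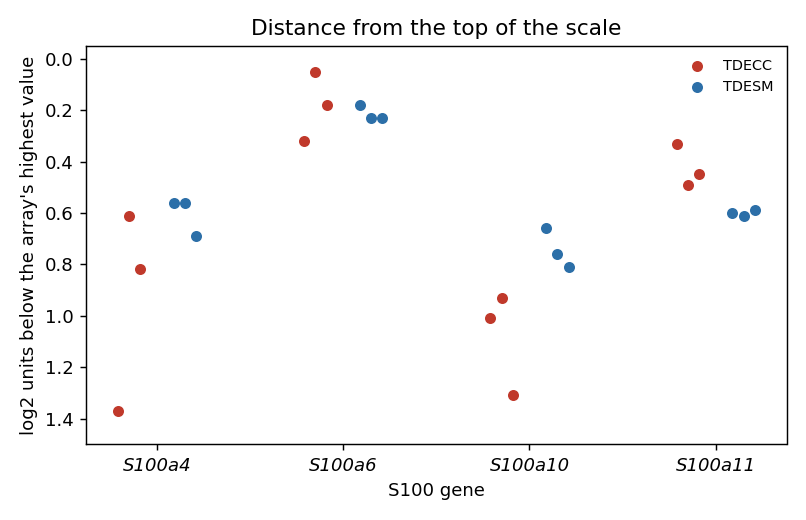
Distance of S100a4, S100a6, S100a10 and S100a11 below the highest value of each array, in log2 units with 0 at the top, TDECC arrays left of TDESM arrays. S100a6 lies within 0.32 of the top on all 6 arrays.

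S100b and S100g stood near the bottom of the scale in both strains. S100b read 3.62, 3.58 and 3.68 in TDECC, against 3.78, 3.81 and 3.68 in TDESM. Its difference of -0.13 (95% confidence interval -0.39 to 0.13, limma adjusted p = 0.398) turned to 0.04 centred on housekeeping genes and 1.14 centred on the poly-A controls. S100g, the gene of calbindin-D9k, a calcium carrier of intestine and uterus induced by vitamin D, read 3.46, 3.54 and 3.42 in TDECC, against 3.44, 3.24 and 3.52 in TDESM. The difference was 0.07 (95% confidence interval -0.22 to 0.37, limma adjusted p = 0.688). No more than 15.6% of probe sets read lower than either gene in either strain.

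S100B is known from glia, Schwann cells and fat cells. Of 10 measured markers of those cells 1 was higher in TDECC and 0 lower, or 10% against 42.7% of all genes. At an unadjusted p below 0.05, 2 were higher and 0 lower. Past the threshold were 3 without TDECC replicate 1 and 2 without TDECC replicate 2. The summed log2 level of the 10 ran from 47.1 to 57.1 on TDECC arrays and from 42.4 to 44.2 on TDESM arrays. The median difference of the 10 was only 0.03, and Fabp4 (4.32) and Mbp (3.18) differed most among them. The gene that passed was Mbp, a myelin protein also made in other forms outside the nervous system, at 8.38 in TDECC and 5.20 in TDESM. Sox10, which defines the Schwann lineage, read 4.70 to 4.86 in TDECC and 4.77 to 5.13 in TDESM. Fabp4, a fatty acid carrier of fat cells, read 13.41 on TDECC replicate 2 alone, against 4.79 and 5.93 on the other TDECC arrays and 3.63 to 3.79 in TDESM.

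**Figure D4:**
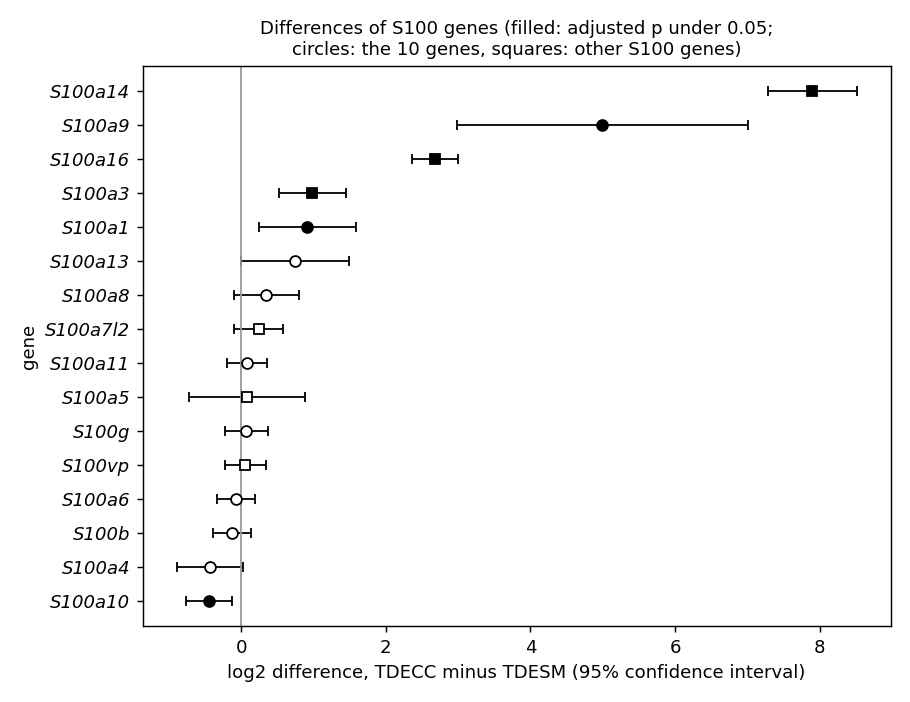
Log2 difference (TDECC minus TDESM) with its 95% confidence interval from limma for the 10 S100 genes (circles) and 6 other measured S100 genes (squares), filled where the adjusted p was below 0.05. S100a14, S100a9 and S100a16 lie furthest to the right, and S100a10 is the only filled symbol left of 0.

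The list of the wider family had 7 measured genes: the S100 genes S100a3, S100a5, S100a7l2, S100a14 and S100a16, the S100-fused relative Tchh, and S100pbp, which encodes an S100-binding protein and is no S100 gene itself. Of these, 3 were higher and 0 lower in TDECC by limma, or 42.9% against 42.7% of all genes, and 3 and 0 had an unadjusted p below 0.05. S100vp was measured too but was not on this list, and its difference of 0.06 did not pass (limma adjusted p = 0.736). S100a14 read 12.11, 13.13 and 12.65 in TDECC, against 4.90, 4.72 and 4.58 in TDESM, by a probe set that the array design marks as shared between transcripts. Its difference of 7.90 (limma adjusted p = 8.61e-07) was the widest of any S100 gene measured. Another probe set of S100a14 gave 11.13, 12.61 and 11.61 in TDECC and 4.91, 5.10 and 4.85 in TDESM. S100a16 differed by 2.68 and S100a3 by 0.99, and neither pair of groups overlapped.

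On chromosome 2 of GRCr8, 14 S100 genes lie between positions 178291503 and 179097417, S100a1 first, and S100a11 and S100a10 lie apart from them at 181875132 to 181913101. Of the 14 measured S100 genes of both stretches, 5 were higher in TDECC, 1 was lower and 8 did not pass, so 42.9% were called against 42.7% of all genes. Calls differed between neighbours: S100a14 and S100a16 were far higher in TDECC, while S100a4, S100a5 and S100a6, next to each other further along, did not pass. Likewise S100a9 differed by 4.99 and its neighbour S100a8 by 0.35. S100a4 and S100a6 stood near the top of the scale and S100a8 near the bottom, which limits what these contrasts between neighbours can show. Of 14 other measured genes, all in the gap between the 2 stretches, 2 were higher and 0 lower, or 14.3% against 42.7% of all genes. No other gene was measured among the S100 genes of the first stretch. Of the 10 genes beyond each end 5 were measured, all on the S100a1 side, and 1 was higher and 1 lower, or 40%.

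**Figure D5:**
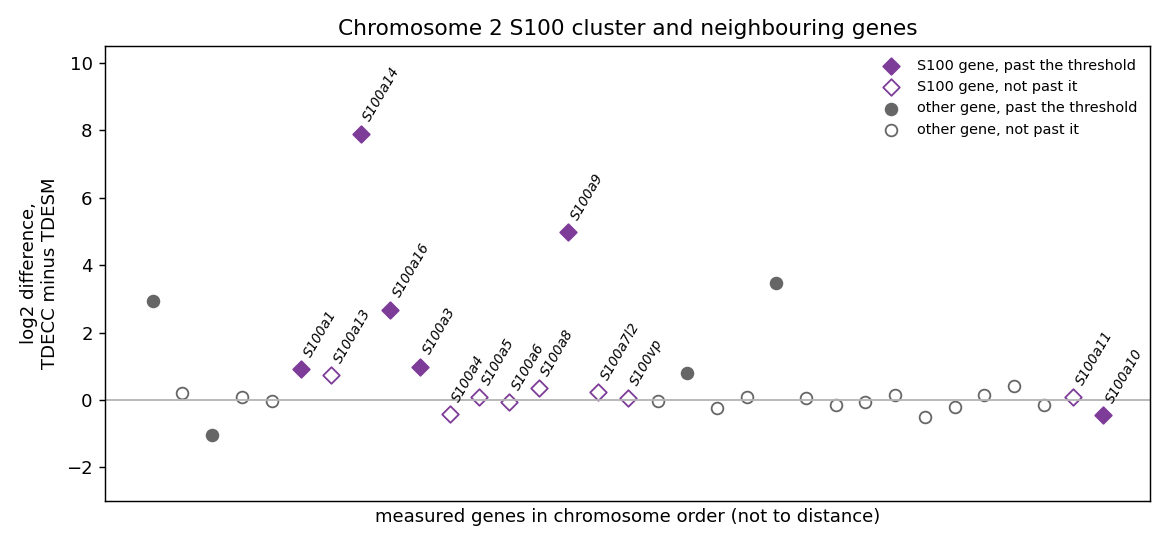
Log2 difference (TDECC minus TDESM) of the measured genes of the chromosome 2 S100 region and of its edge on the S100a1 side, in chromosome order and not to distance. Diamonds are S100 genes and filled symbols passed the threshold. S100a14 and S100a9 stand well above their neighbours S100a13 and S100a8.

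The annexins, calcium-dependent membrane-binding proteins, are the best known partners of S100 proteins. Of 10 measured, 1 was higher in TDECC, 3 were lower and 6 did not pass, or 40% against 42.7% of all genes; centred on the poly-A controls 8 were higher and 0 lower. Anxa1, the S100A11 partner, averaged 14.19 in TDECC and 13.77 in TDESM, a difference of 0.41 (limma adjusted p = 0.0418). Anxa6 differed by -1.92, Anxa7 by -0.74 and Anxa3 by -0.52. Anxa11, whose protein binds S100A6, averaged 10.46 in TDECC and 10.19 in TDESM and did not pass. The count of 4 was unstable, at 1 without TDESM replicate 1 or 2 and 2 without TDESM replicate 3.

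Of 27 measured other partners, 6 were higher in TDECC and 6 lower, or 44.4% against 42.7% of all genes, and centred on the poly-A controls 24 were higher and 0 lower. Besides Il1a, those most above TDESM were Myh14, a non-muscle myosin chain (6.28), Ezr, the membrane-actin linker ezrin (1.41), and Nucb1 (1.30). The genes of 2 S100A6-binding proteins were lower in TDECC: Cacybp, calcyclin binding protein, by a difference of -0.97 and Sugt1 by -0.52. Ppfibp1, liprin beta 1, a partner of S100A4, differed by -0.44. Myh9, the non-muscle myosin chain whose filaments S100A4 takes apart, averaged 11.76 in TDECC and 12.09 in TDESM and did not pass (limma adjusted p = 0.139). Without TDESM replicate 1 the count of partners was 7.

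Of 15 genes of S100 receptors and their signalling, 3 were higher in TDECC and 5 lower, or 53.3% against 42.7% of all genes; these were 3 and 1 centred on housekeeping genes, and 11 and 0 centred on the poly-A controls. Tlr4, a receptor for S100A8 and S100A9, read 7.91, 8.89 and 9.34 in TDECC, against 6.50, 6.57 and 6.90 in TDESM, a difference of 2.06 (limma adjusted p = 0.00292). Its lowest TDECC value was on replicate 1, as for S100a9 and for 29.1% of all genes. Alcam, an adhesion protein reported to bind S100B, differed by 1.20 and Rela, an NF-kB subunit, by 0.87. The TLR4 adaptor gene Myd88 differed by -1.01 and Ly96, the TLR4 co-receptor MD-2, by -0.61. Ager, the gene of RAGE, averaged 5.81 in TDECC and 5.90 in TDESM, and Bsg, basigin, a receptor for S100A9, averaged 11.97 in TDECC and 11.58 in TDESM; neither passed. The count of 8 was 5 without TDESM replicate 1 or 2.

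Of 35 other measured EF-hand genes, 8 were higher in TDECC, 12 were lower and 15 did not pass, or 57.1% called against 42.7% of all genes, and centred on the poly-A controls 25 were higher and 5 lower. Ocm, oncomodulin, differed by 3.85, Calml4 by 3.10, Gca, grancalcin, by 2.50 and Efhd2 by 2.39. The 4 lowest differences were those of Rcn1 (-7.99) and Rcn3 (-5.53), reticulocalbins of the endoplasmic reticulum, the matrix protein gene Sparc (-7.75) and Vsnl1 (-4.03), which encodes a neuronal calcium sensor. Of 8 genes of vitamin D response and calcium transport, which include regulators of S100g, 1 was higher, Atp2b1, a plasma membrane calcium pump (2.07), and 1 lower, Slc8a1, the sodium-calcium exchanger (-6.65), against 7 and 1 centred on the poly-A controls. Without that centring 25% of the 8 were called, against 42.7% of all genes. Vdr, the vitamin D receptor, averaged 4.49 in TDECC and 4.18 in TDESM and did not pass.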

How the data were processed

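RNA of 3 TDECC and 3 TDESM samples was hybridised, as biotin-labelled cRNA, to rat Affymetrix arrays. Per the submitters' processing notes, the authors used RMA to make the deposited log2 values; no RMA version is stated. RMA brings arrays to a common distribution, which hides any difference in total mRNA. Few arrays limit the precision.

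Groups came from the sample titles. In R 4.3.3 with limma 3.58.1, 57 control probe sets were set aside; of the rest, 20826 named 1 symbol, 436 several and 9780 none. Where a gene had several probe sets, the one with the highest average was used, giving 14217 genes with no filter on dim ones. Then lmFit and eBayes tested TDECC minus TDESM. All 10 S100 genes matched RefSeq of GRCr8 by identifier. Named genes were the 10, up to 4 each way per list by size among those past the threshold, and a fixed set of known partners, receptors and markers. The 10 genes and all lists were chosen with earlier results of these data known. Alternatives were another scaling, filter, probe set rule, test setting or minimum difference, the replicate block, and each array left out.

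The limma step was tested on a simulated TDECC against TDESM comparison of 14217 genes in which 200 had been changed. It found 49% of the genes given a log2 change of 1, 82% of the genes given a log2 change of 2, and 3.7% of its calls were false. In the real comparison 42.7% of genes were called, a far larger share than was changed here. Adjusted p-values depend on that share, so these rates need not hold for the real comparison.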

Additional observations from a re-analysis of the deposited data

How the results depend on the processing

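S100a9 kept its direction and its call under every alternative run, with a difference of 4.35 to 6.08 on leaving out each array in turn. Past the threshold were 3 S100 genes, but 1 with cyclic loess, 1 with a minimum log2 difference of 1, 10 centred on poly-A controls, and 1 to 4 leaving out each array. Centring on 24 poly-A control probe sets, which read 1.27 lower in TDECC, moved the median gene by 1.27, and S100a4, S100a6, S100a10 and S100b then differed by 0.84, 1.20, 0.83 and 1.14. There 12187 genes passed, with 7 other S100 family genes, 8 annexins, 24 partners, 8 vitamin D and calcium genes, 11 myeloid and 10 Schwann, glial and adipocyte markers. S100a6 turned to 0.038 with cyclic loess and 0.10 centred on housekeeping genes, where S100b turned to 0.04; that centring left 2 annexins, 4 receptor genes, 1 myeloid marker and 2 Schwann, glial and adipocyte markers. A minimum log2 difference of 1 left 3621 genes, 1 annexin, 5 partners and 3 receptor genes, and with every probe set tested by itself 11470 of them passed. The mean of all probe sets gave 1 myeloid marker. Same-numbered arrays correlated at -0.067, 0.022 and -0.143 in their deviations from the strain means. These values gave no sign of pairing by number, and with 3 arrays per strain they cannot exclude it. With the replicate block 5342 genes, 2 S100 genes and 2 annexins passed, and S100a10 did not (limma adjusted p = 0.0743). Leaving out each array gave 1 to 5 annexins, 7 to 13 partners, 5 to 7 receptor genes, 0 to 1 myeloid markers, 1 to 3 Schwann, glial and adipocyte markers, and S100g differences of -0.007 to 0.133. The cause of these changes was not tested. Signal at the top and bottom of the scale limits what can be read for S100a4, S100a6, S100a8, S100a10, S100a11, S100b and S100g, and the low TDESM values limit the size of the S100a9 difference.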
